A study of Mus musculus with 2 samples.

Results

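Rexo5 and 5 of its neighbours on mouse chromosome 7 (Thumpd1, Eri2, Dcun1d3, Lyrm1 and Tmem159) are described here in colitis CD8 T cells, to ask whether the neighbours of Rexo5 moved with it. They are 6 of the 12798 genes of the count table, and all 6 were among the 9653 genes tested between the groups. Rexo5 and Tmem159 were chosen because they differed between these same hashtags, so their differences are given as a description with no p-value or interval. The other 4 were chosen by position. All 6 had enough UMIs to pass the filter on low counts.

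The CD8 T cells came from the lamina propria of the colon. The mice were Rag1 knockout hosts, which make no T or B cells of their own. The hosts had been given wildtype naive CD4+ T cells, which cause colitis in such hosts, and also spleen CD8 T cells, whose donors were Bcl6fl/flCd8aCre or Bcl6fl/fl mice. All CD8 donors thus carried the floxed Bcl6 allele, and the first genotype also carried Cre driven by Cd8a. The deposited annotation names the groups Crep and Cren. Reading Crep as Bcl6fl/flCd8aCre and Cren as Bcl6fl/fl is not spelled out in any source, so the deposited names are kept. On that reading the groups differ in the Cre allele as well as in Bcl6, and the effects of these cannot be told apart. The labels give an age of 8 to 12 weeks at the start of transfer. Each group held 4 hashtags, antibody barcodes that mark the cells of 1 input sample, and hashtags served as replicates. Whether a hashtag stands for 1 mouse is not stated anywhere, so p-values cover only hashtag-to-hashtag spread.

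The data comprised 8562 cells and 25614763 UMIs (unique molecular identifiers, 1 per captured RNA molecule) from a single pooled 5′ library. A hashtag held 900 to 1305 cells and 2635241 to 4201265 UMIs. Cd3e was detected in 93.9% of cells, Cd3d in 90.2%, Cd8b1 in 84.4%, Cd8a in 79.9% and Trac in 33.1%. The 3 CD4 T cell markers summed to 7.97 to 15.8 CPM (UMIs of a gene per 1000000 UMIs of the hashtag) in Crep hashtags and 3.41 to 10.7 CPM in Cren hashtags. Cd4 was detected in 0.969% of all cells, Cd40lg in 1.004% and Foxp3 in 0.234%. Cd4 itself had an edgeR adjusted p under 0.05 between the groups. The 4 myeloid markers summed to 65.8 to 94.9 CPM in Crep and 65.00 to 80.3 CPM in Cren, and the 2 epithelial and stromal markers measured to 6.04 to 14.6 CPM in Crep and 13.8 to 20.5 CPM in Cren. The 3 B and plasma cell markers, and Krt8 and Col1a1, were not analysed here. The part of these cells in the values below was not tested. Bcl6 itself was higher in the hashtags labelled Crep (log2 fold change 0.75, SE 0.14, edgeR adjusted p = 0.0293). UMIs of a 5′ kit are counted per gene and do not show whether the floxed part was deleted.

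Rexo5 encodes a 3′ to 5′ RNA exonuclease of the DEDD family, whose Drosophila counterpart trims the ends of ribosomal and small nucleolar RNAs. Such exonucleases remove nucleotides from RNA ends with a catalytic core of 4 acidic residues, the D, E, D and D of the name. Many mammalian genes lie head to head with a neighbour on the opposite strand, so that 1 stretch of DNA holds the starts of both. Rexo5 and Eri2 form such a pair, and Lyrm1 and Dcun1d3 form another.

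In GRCm38 (GENCODE M21) all 6 genes are protein coding and lie between positions 119715093 and 120120992 of chromosome 7. Thumpd1 (ENSMUSG00000030942.8) runs from 119715093 to 119720798 on the minus strand. Eri2 (ENSMUSG00000030929.17) runs from 119768679 to 119794058 on the minus strand. Rexo5 (ENSMUSG00000030924.16) runs from 119794006 to 119848943 on the plus strand. Its start lies 52 bases from that of Eri2, and the 2 gene bodies share 53 bases. Dcun1d3 (ENSMUSG00000048787.13) runs from 119852796 to 119896298 on the minus strand and Lyrm1 (ENSMUSG00000030922.12) from 119895861 to 119956963 on the plus strand. These 2 genes share 438 bases, and both start 102 kb from the Rexo5 start. Tmem159 (ENSMUSG00000030917.13) runs from 120102353 to 120120992 on the plus strand and starts 308 kb from Rexo5. No source used here says that counting used the strand, so reads from the shared stretches could have been given to either partner. The annotation also places Acsm3 over 18835 bases of Eri2 and Dnah3 over 34293 bases of Lyrm1, on the opposite strand. These overlapping genes were not analysed here.

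The promoter windows of the head-to-head pairs are shown because their letters show how much sequence each pair shares. Each window holds 250 bases before and 50 bases after a RefSeq start (GRCm38.p6), is written 5′ to 3′ on its gene's strand, and has in capitals the bases that lie in both windows of the pair.
Rexo5, chr7:119793937-119794236, plus strand: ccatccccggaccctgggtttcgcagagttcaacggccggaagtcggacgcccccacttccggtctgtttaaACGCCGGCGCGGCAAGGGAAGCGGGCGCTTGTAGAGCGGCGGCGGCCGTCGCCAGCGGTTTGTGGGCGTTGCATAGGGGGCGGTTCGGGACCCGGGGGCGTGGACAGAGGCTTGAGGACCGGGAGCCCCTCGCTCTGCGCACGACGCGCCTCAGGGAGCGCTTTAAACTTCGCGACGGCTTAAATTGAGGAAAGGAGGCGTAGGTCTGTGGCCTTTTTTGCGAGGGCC
Eri2, chr7:119794009-119794308, minus strand: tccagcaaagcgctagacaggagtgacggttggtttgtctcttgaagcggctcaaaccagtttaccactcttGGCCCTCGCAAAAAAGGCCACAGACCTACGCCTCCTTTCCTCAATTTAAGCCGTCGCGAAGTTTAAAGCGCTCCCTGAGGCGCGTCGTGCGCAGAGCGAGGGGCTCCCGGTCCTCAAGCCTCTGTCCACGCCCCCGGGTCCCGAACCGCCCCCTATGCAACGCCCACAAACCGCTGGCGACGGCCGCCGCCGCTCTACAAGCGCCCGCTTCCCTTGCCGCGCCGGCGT
Lyrm1, chr7:119895611-119895910, plus strand: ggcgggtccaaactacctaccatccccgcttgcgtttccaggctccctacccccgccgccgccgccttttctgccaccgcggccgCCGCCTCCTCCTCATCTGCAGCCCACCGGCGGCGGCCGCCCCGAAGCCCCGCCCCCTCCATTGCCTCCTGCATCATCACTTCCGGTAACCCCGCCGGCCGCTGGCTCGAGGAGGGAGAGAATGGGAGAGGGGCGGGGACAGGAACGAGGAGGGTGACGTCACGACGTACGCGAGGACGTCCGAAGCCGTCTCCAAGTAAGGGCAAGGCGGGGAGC
Dcun1d3, chr7:119895696-119895995, minus strand: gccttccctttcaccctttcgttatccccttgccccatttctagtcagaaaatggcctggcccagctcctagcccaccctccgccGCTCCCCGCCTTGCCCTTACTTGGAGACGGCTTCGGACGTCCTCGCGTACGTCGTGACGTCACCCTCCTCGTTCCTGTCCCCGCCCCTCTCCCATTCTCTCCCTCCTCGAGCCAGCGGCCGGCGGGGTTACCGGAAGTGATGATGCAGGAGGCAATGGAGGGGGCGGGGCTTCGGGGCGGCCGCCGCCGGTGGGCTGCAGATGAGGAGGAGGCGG
The printed Rexo5 and Eri2 windows share 228 of their 300 bases, and the printed Lyrm1 and Dcun1d3 windows share 215. RefSeq gives further windows for Rexo5, Lyrm1 and Dcun1d3, and the pairs printed are those that share the most bases. Other pairs of windows share fewer bases or none. GC content was 66.3% in the Rexo5 window, 63.3% in that of Eri2, 70.0% in that of Lyrm1 and 66.7% in that of Dcun1d3, against a median of 52.7% over the 32817 promoter windows of the genome. The windows held 36, 32, 33 and 26 CpG dinucleotides in that order, against a median of 7.

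A search on both strands for 6 motifs described the windows further. RefSeq gave 10 windows for 5 of the genes, with Tmem159 named only. Several of the 10 overlap, so counts out of 10 can hold the same site more than once. TTCNNNGAA, the spaced palindrome that STAT factors bind and that the BCL6 motif contains, was in 0 of the 10 windows and in 8.29% of all promoter windows. CCAAT (37.4% of all windows) and CACGTG, the E-box (7.15%), were also in 0 of 10. The GC box GGGCGG (35.6% of all windows) was in 8 of 10, and in the printed windows it occurred 1 time each for Rexo5 and Eri2 and 3 times each for Lyrm1 and Dcun1d3. These lie in the shared stretches, so they are 1 site for the first pair and 3 sites for the second. TGACGTCA, the cyclic AMP response element (1.79% of all windows), was in the Lyrm1 window at base 239 and in the Dcun1d3 window at base 140, counted from the 5′ end, which is 1 site in the shared stretch. GGAAGT, the core bound by ETS factors (23.8% of all windows), was in 7 of 10 and began at bases 39 and 56 of the printed Rexo5 window, outside the stretch shared with Eri2, whose window held none. These are matches of letters and say nothing about binding.

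Over all cells, Rexo5, Eri2, Tmem159 and Dcun1d3 were higher in every Crep hashtag than in any Cren hashtag, while Lyrm1 and Thumpd1 overlapped between the groups. Rexo5 was 2.63-fold higher in Crep and Eri2, its head-to-head partner, 1.93-fold. Eri2 and Dcun1d3 did not pass the test across all genes. Beyond the 6 genes, 0 of the 14 other genes tested within 2 Mb of the Rexo5 start passed it. Of all tested genes 0.611% passed.

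Rexo5 had 45.2, 44.4, 48.3 and 34.6 CPM in Crep hashtags 1 to 4, against 17.8, 15.2, 18.96 and 13.03 CPM in Cren hashtags 1 to 4. All 4 Crep hashtags lay above the highest Cren hashtag, and hashtag 4 was the lowest of each group. The mean level was 43.1 ± 5.94 CPM across Crep hashtags, against 16.3 ± 2.66 CPM across Cren hashtags (SD, n = 4 each), from 531 UMIs in Crep and 220 in Cren. On the log2 scale the difference was 1.40 (SE 0.14), and 99.7% of the 9653 tested genes had a lower log2 fold change.

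Eri2 encodes another exonuclease of the DEDD family, related to ERI1, which trims histone mRNA and small RNA ends. Its level was 7.48, 6.17, 8.699 and 8.74 CPM in Crep hashtags 1 to 4, against 4.28, 2.797, 4.59 and 4.22 CPM in Cren hashtags 1 to 4. The lowest Crep hashtag was above the highest Cren hashtag. Eri2 averaged 7.77 ± 1.22 CPM across Crep hashtags, against 3.97 ± 0.799 CPM across Cren hashtags (SD, n = 4 each), and these levels rest on 94 UMIs in Crep and 53 in Cren. The log2 fold change was 0.95 (SE 0.25, 95% interval 0.42 to 1.49), with an edgeR adjusted p of 0.107, so Eri2 did not pass.

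Dcun1d3 encodes a DCN1-like protein that binds cullins and acts in neddylation, the attachment of the ubiquitin-like protein NEDD8. It had 11.1, 15.9, 16.1 and 15.6 CPM in Crep hashtags 1 to 4, against 8.32, 10.3, 10.7 and 6.13 CPM in Cren hashtags 1 to 4. Crep 1 was the lowest Crep hashtag and lay just above the highest Cren hashtag. The mean was 14.7 ± 2.41 CPM across Crep hashtags, against 8.85 ± 2.09 CPM across Cren hashtags (SD, n = 4 each), a log2 fold change of 0.71 (SE 0.20, 95% interval 0.29 to 1.14, edgeR adjusted p = 0.143).

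Lyrm1, the head-to-head partner of Dcun1d3, encodes a small protein with the LYR motif, which is found in many mitochondrial assembly factors. Lyrm1 stood at 17.9, 12.9, 12.2 and 9.12 CPM in Crep hashtags 1 to 4, against 11.4, 9.95, 9.79 and 10.3 CPM in Cren hashtags 1 to 4. Crep 1, 2 and 3 were above every Cren hashtag and Crep 4 was below them all. The log2 fold change was 0.33 (SE 0.20, 95% interval -0.09 to 0.76, edgeR adjusted p = 0.587), from 161 UMIs in Crep and 139 in Cren.

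Tmem159 encodes promethin, also called lipid droplet assembly factor 1, which works with seipin where lipid droplets form. It had 26.01, 25.3, 19.3 and 23.2 CPM in Crep hashtags 1 to 4, against 13.8, 15.9, 13.8 and 14.9 CPM in Cren hashtags 1 to 4. The groups did not overlap. Tmem159 averaged 23.5 ± 2.999 CPM over the Crep hashtags and 14.6 ± 1.01 CPM over the Cren hashtags (SD, n = 4 each), a log2 difference of 0.69 (SE 0.14).

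Thumpd1 encodes an RNA-binding adaptor that NAT10 needs to acetylate cytidines in tRNA. Its level was 32.5, 34.7, 34.1 and 42.6 CPM in Crep hashtags 1 to 4, against 32.6, 36.7, 29.7 and 32.2 CPM in Cren hashtags 1 to 4. Only Crep 4 lay above the highest Cren hashtag. Both groups had 436 Thumpd1 UMIs, and the log2 fold change was 0.13 (SE 0.12, 95% interval -0.12 to 0.38, edgeR adjusted p = 0.749).

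**Figure D1:**
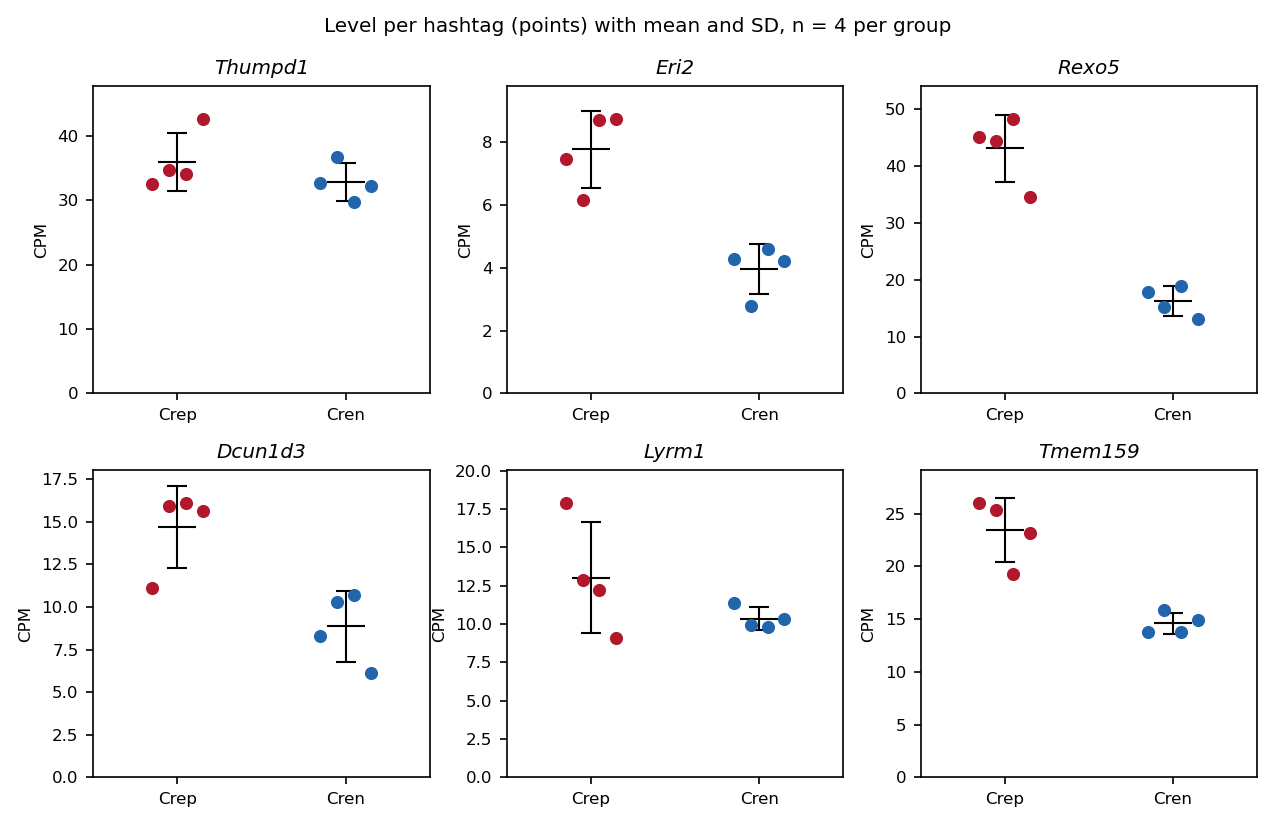
Level of each of the 6 genes in CPM (vertical axis, from 0, own scale in each panel) in the 4 Crep and 4 Cren hashtags. Points are hashtags and bars are mean and SD; the groups are apart for Eri2, Rexo5, Dcun1d3 and Tmem159 and overlap for Thumpd1 and Lyrm1.

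Of the 4 genes chosen by position, 0 passed an edgeR adjusted p of 0.05, where 0.611% of all tested genes passed in either direction, 0.342% as higher and 0.269% as lower in Crep. Eri2 and Dcun1d3 had unadjusted p-values under 0.05, as did 5.69% of all tested genes in that direction and 11.1% in either. By DESeq2 also 0 of these 4 passed, with adjusted p of 0.217 for Eri2 and 0.219 for Dcun1d3. Groups without overlap, Crep above Cren, were seen in 4 of the 6 genes and in 3.44% of the 9653 genes. Of those 4 genes, Rexo5 and Tmem159 had been chosen for their difference, which leaves Eri2 and Dcun1d3. The 4 genes chosen by position had positive log2 fold changes with a median of 0.52, and with Rexo5 and Tmem159, chosen for theirs, the median of the 6 was 0.70. Of all genes 49.9% had a positive one, and the median was -0.00.

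Genes farther out on chromosome 7 were compared in the same fit. Apart from the 6 genes, 14 tested genes started within 2 Mb of the Rexo5 start, and their log2 fold changes ran from -0.12 to 0.61 with a median of 0.00. By edgeR 0 of the 14 passed, 0 had an unadjusted p under 0.05, and 0 had groups without overlap. Of all tested genes 0.611% passed, 11.1% had an unadjusted p under 0.05, and 3.44% had groups without overlap with Crep above. At such low shares, 0 passing and 0 apart among 14 genes do not set these genes apart from genes at large. DESeq2 also called 0 of the 14. Their signs were split into 7 positive and 7 negative.

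The nearest tested gene started at -938 kb on the lower side (Knop1) and at 841 kb on the upper side (Uqcrc2). On the lower side, Knop1, which encodes a nucleolar protein, averaged 13.7 ± 2.02 CPM across Crep hashtags, against 13.8 ± 2.403 CPM across Cren hashtags (log2 fold change -0.01, edgeR adjusted p = 0.996). For Ccp110, a centriole gene, the log2 fold change was -0.12 (edgeR adjusted p = 0.946), and for Gde1, a phosphodiesterase gene, 0.08 (edgeR adjusted p = 0.907). On the upper side, Uqcrc2, a subunit of mitochondrial complex III, averaged 159.5 ± 11.9 CPM across Crep hashtags, against 168 ± 7.38 CPM across Cren hashtags (log2 fold change -0.08, adjusted p = 0.792). Mosmo, a modulator of Smoothened, had 0.01 (adjusted p = 0.987) and Polr3e, a subunit of RNA polymerase III, 0.18 (adjusted p = 0.823). The highest value among the 14, outside the naming rule and chosen after its value was seen, was 0.61 for Itpripl2 (SE 0.32, adjusted p = 0.502).

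**Figure D2:**
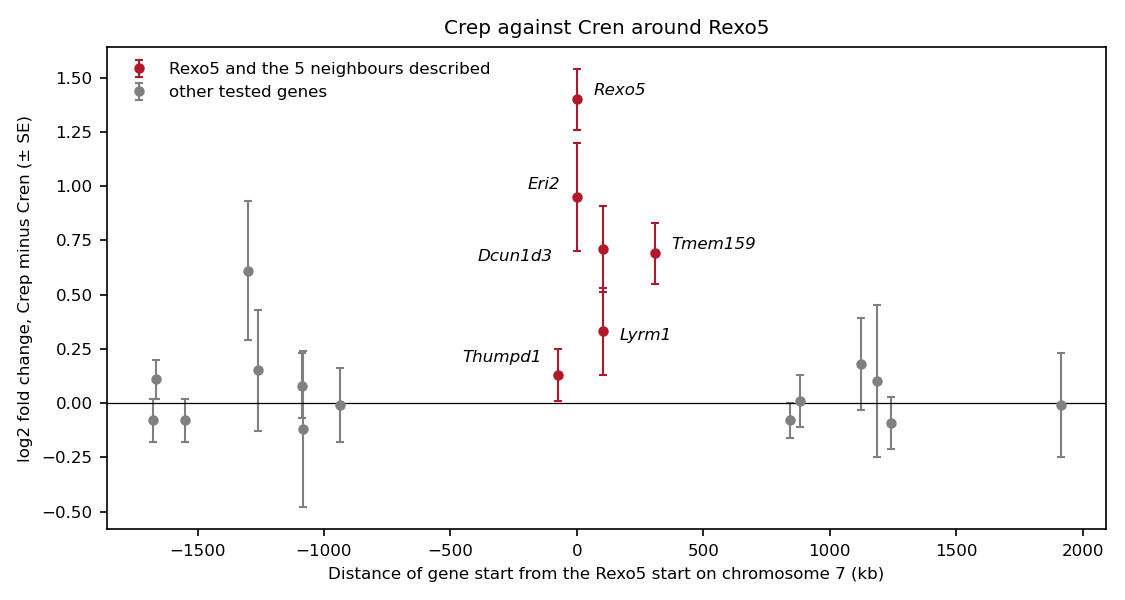
Log2 fold change, Crep minus Cren, with its SE (vertical axis) against the distance of each gene's start from the Rexo5 start in kb (horizontal axis). Red points are the 6 genes, from 0.13 to 1.40, and grey points are the 14 other tested genes within 2 Mb, from -0.12 to 0.61.

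Within 5 Mb, 28 tested genes besides the 6 had a median log2 fold change of 0.02, and 0 passed by edgeR. Among these 28, 1 had groups without overlap, with Crep above, as did 3.44% of all tested genes. Over the whole of chromosome 7, 5 of 708 tested genes passed (0.706%). These include Rexo5 and Tmem159, chosen for passing. Without them 3 of 706 passed (0.425%), and the other numbered autosomes ranged from 0% on chromosome 15 to 1.25% on chromosome 6. The 3 were Arntl, a circadian clock gene 6.59 Mb from Rexo5 that fell in Crep (log2 fold change -0.93), Itgal, the LFA-1 integrin chain, at 7.502 Mb (0.48), and Ctsd, cathepsin D, at 22.6 Mb (0.64).

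The mean Rexo5 level was higher in Crep than in Cren in each fine cluster where both groups could be compared. The annotation divides the cells into 12 fine clusters, and in 6 of them both groups had 3 or more hashtags with 20 or more cells. Mean Rexo5 levels in these 6 were 2.29 to 4.60 times as high in Crep as in Cren. The groups did not overlap in clusters 0, 1, 2, 3 and 5, and overlapped in cluster 6. Rexo5 was chosen for its difference over these same cells, and how many of all genes were apart in each cluster was not counted.

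In cluster 0, Rexo5 had 44.2, 39.5, 68.3 and 55.5 CPM in Crep hashtags 1 to 4, against 10.97, 13.2, 10.4 and 10.5 CPM in Cren hashtags 1 to 4. Cluster 2 had 60.9, 56.9, 45.2 and 58.3 CPM in Crep and 3.32, 13.5, 19.7 and 13.4 CPM in Cren. In both clusters the lowest Crep hashtag had more than the highest Cren hashtag. Cluster 3 had 48.5, 45.5, 58.98 and 53.5 CPM in Crep and 29.7, 12.1, 29.7 and 11.2 CPM in Cren. The log2 differences were 2.11 (SE 0.31) in cluster 0, 2.22 (SE 0.34) in cluster 2, 1.22 (SE 0.32) in cluster 3 and 1.19 (SE 0.46) in cluster 5. In clusters 1 and 6 Rexo5 did not pass the filter on low counts and was not fitted. Run within each cluster, that filter asks for a set level in as many hashtags as the smaller group has. In clusters 0, 2 and 5 Rexo5 met it in Crep hashtags only, so the differences fitted there are conditioned on a high Crep level. In cluster 3 the Cren hashtags at 29.7 CPM met it too, but they are too few to pass without the Crep hashtags. The difference fitted in cluster 3 is therefore conditioned likewise.

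In cluster 1 the gap was narrow, with Crep 4 at 20.7 CPM against Cren 3 at 20.6 CPM. In cluster 6, Crep 4 had 9.57 CPM, from 1 UMI in 39 cells, while the other Crep hashtags had 46.6 to 55.9 CPM, and the Cren hashtags had 6.63 to 30.3 CPM. Whether the Rexo5 difference varied between the 6 clusters was tested as an interaction of cluster and group, and it did not pass (F = 1.84, edgeR adjusted p = 0.944, with 5 of 6656 genes, 0.0751%, passing). This does not show that the difference was the same in every cluster.

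**Figure D3:**
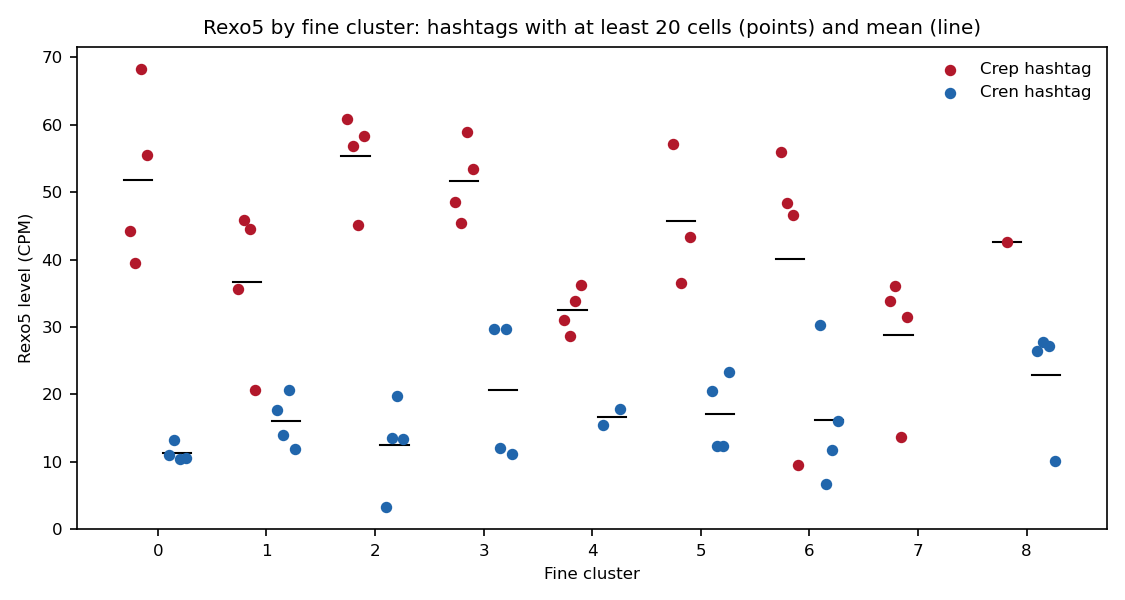
Rexo5 level in CPM (vertical axis, from 0) in fine clusters 0 to 8 (horizontal axis), with Crep left of Cren in each. Points are hashtags with at least 20 cells and lines are means, and cluster 7 has no Cren point; the groups overlap in cluster 6, where 1 Crep hashtag stands at 9.57 CPM.

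Levels were ordered over the clusters in which at least 2 hashtags of the group had 20 or more cells. Among the Crep hashtags, Rexo5 was ordered from cluster 2 (55.3 ± 6.97 CPM) over clusters 0 (51.90 ± 12.8), 3 (51.6 ± 5.90), 5 (45.7 ± 10.5, n = 3), 6 (40.1 ± 20.8), 1 (36.7 ± 11.6) and 4 (32.4 ± 3.30) to cluster 7 (28.8 ± 10.2 CPM; SD, n = 4 unless given). In Cren the order ran from cluster 8 (22.9 ± 8.51 CPM) over clusters 3 (20.7 ± 10.4), 5 (17.1 ± 5.59), 4 (16.6 ± 1.72, 2 hashtags), 6 (16.2 ± 10.2), 1 (16.01 ± 3.86) and 2 (12.5 ± 6.79) to cluster 0 (11.3 ± 1.31 CPM). Each step in either order was smaller than the larger of the 2 SDs beside it, so neighbours in the order are not told apart. Clusters 0 and 2 thus stood high in Crep and low in Cren. Cluster 7 held 570 Crep cells and 22 Cren cells, and no Cren hashtag reached 20 cells there. Small clusters give values from few UMIs only. Cluster 9, whose cells had a median of 1007 UMIs, held 11 Rexo5 UMIs in 63 Crep cells (144 CPM) and 3 in 56 Cren cells (30.8 CPM). Cluster 11 held 1 UMI in 19 Crep cells and 0 in 54 Cren cells.

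Of the neighbours, Thumpd1 had enough counts to be fitted in 4 clusters and Tmem159 in 1, while Eri2, Dcun1d3 and Lyrm1 did not pass the filter on low counts in any. Of all genes fitted, 0.9798% passed in cluster 0, 0.173% in cluster 1, 0.2803% in cluster 2, 0% in cluster 3, 1.19% in cluster 5 and 0.0269% in cluster 6. Thumpd1 passed in 0 of the 4 clusters where it was fitted, with log2 fold changes of 0.38 in cluster 0 (edgeR adjusted p = 0.762), 0.15 in cluster 1 (0.973), 0.09 in cluster 2 (0.9999) and -0.13 in cluster 3 (0.9996). In cluster 1 the sign of Thumpd1 turned without Crep 4, in cluster 2 without Crep 2 or without Cren 3, and in cluster 3 without Cren 3.

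Tmem159 was 25.9 ± 6.11 CPM across Crep hashtags, against 20.4 ± 10.7 CPM across Cren hashtags in cluster 0 (SD, n = 4 each), with overlapping groups and a log2 difference of 0.21 (SE 0.35). That difference was 0.02 without Cren 1 and 0.44 without Cren 4. Its groups were apart in cluster 1, at 24.6 ± 10.8 CPM across Crep hashtags, against 12.7 ± 2.47 CPM across Cren hashtags, and in cluster 3, at 22.8 ± 9.83 CPM across Crep hashtags, against 8.47 ± 5.74 CPM across Cren hashtags. Rexo5 had its highest ratio of means in cluster 0. Dcun1d3 was apart in cluster 0 only, at 17.5 ± 8.73 CPM across Crep hashtags, against 5.799 ± 2.17 CPM across Cren hashtags. That gap was narrow, with Crep 1 at 8.43 CPM from 4 UMIs and Cren 3 at 7.83 CPM from 3 UMIs. How many of all genes were apart in these clusters was not counted. Eri2 and Lyrm1 overlapped in all 6 clusters. Eri2 had 18 UMIs in Crep and 5 in Cren in cluster 0 and 13 or fewer per group in the others. Over the 6 clusters the ratio of mean levels, Crep over Cren, ran from 1.16 to 4.49 for Eri2, from 1.27 to 3.33 for Dcun1d3, from 1.06 to 2.69 for Tmem159, from 1.20 to 1.81 for Lyrm1 and from 0.63 to 1.40 for Thumpd1. The interaction test passed for none of Tmem159 (edgeR adjusted p = 0.993), Dcun1d3 (0.997) and Thumpd1 (0.997), and Eri2 and Lyrm1 did not pass its filter.

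The hashtags differ in how their cells spread over the clusters, so levels were also computed with the cluster mix held fixed, as the equally weighted mean of the 5 clusters with at least 20 cells in every hashtag (0, 1, 2, 3 and 6). On this measure Rexo5 was 47.1 ± 5.56 CPM across Crep hashtags, against 15.3 ± 3.56 CPM across Cren hashtags, a log2 difference of 1.58. Eri2 was 7.45 ± 0.941 CPM across Crep hashtags, against 3.003 ± 0.598 CPM across Cren hashtags (1.08, limma adjusted p = 0.296), and Tmem159 was 20.9 ± 4.42 CPM across Crep hashtags, against 12.99 ± 2.18 CPM across Cren hashtags (0.64; SD, n = 4 each). The groups stayed apart for these 3 genes and overlapped for Dcun1d3 (0.74, limma adjusted p = 0.5599), Lyrm1 (0.36) and Thumpd1 (0.07). Rexo5 and Tmem159 were chosen for their difference, and how many of all genes were apart on this measure was not counted.

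Rexo5 was also detected in more Crep cells. After each cell was thinned to 2000 UMIs, which left out 986 shallower Crep cells and 937 Cren cells, 8.098%, 7.26%, 9.73% and 5.64% of cells had a Rexo5 UMI in Crep hashtags 1 to 4, against 2.64%, 2.67%, 3.79% and 2.29% in Cren hashtags 1 to 4. The 95% Wilson intervals, which cover counting error only, were 4.17% to 7.59% for the lowest Crep hashtag and 2.695% to 5.297% for the highest Cren hashtag, so these 2 intervals overlap while the shares do not. Without thinning the means were 11.7% ± 2.71 in Crep and 4.696% ± 1.03 in Cren (SD, n = 4 each), at median depths of 2714 UMIs per cell in Crep and 2812 in Cren. No cell type known to lack these RNAs was at hand to set a background share.

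Of the other genes, Eri2 was in 1.73% ± 0.519 of thinned Crep cells and 0.786% ± 0.345 of thinned Cren cells. For Tmem159 the shares were 4.34% ± 0.947 of Crep cells, against 2.66% ± 0.312 of Cren cells. Dcun1d3 was in 2.88% ± 1.04 of Crep and 1.71% ± 0.196 of Cren cells. Lyrm1 was in 2.51% ± 0.434 of Crep cells, against 1.83% ± 0.255 of Cren cells. Thumpd1 was in 6.71% ± 0.874 of Crep and 6.48% ± 0.2995 of Cren cells (SD, n = 4 each). Thinned shares overlapped between the groups for all 5. Without thinning they were apart for Eri2, Tmem159 and Dcun1d3, as for Rexo5. For Dcun1d3 that gap was narrow, with 3.24% in Crep 1 against 3.196% in Cren 3. How many of all genes had shares that were apart was not counted.

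Cells with UMIs of 2 of the genes at once were few. Rexo5 and Eri2 were seen together in 10 Crep cells and 1 Cren cell, where the shares of each gene alone give 10.9 in Crep and 2.54 in Cren. Rexo5 and Tmem159 were together in 34 Crep cells (31.9 from the shares) and 14 Cren cells (8.88). Rexo5 and Dcun1d3 shared 24 Crep cells (20.3) and 13 Cren cells (5.801). Rexo5 and Thumpd1, whose level overlapped between groups, shared 57 Crep cells (46.8) and 26 Cren cells (19.4). The depth of each cell was not held fixed in these counts, and cells are not replicates.

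Levels were also set side by side over the 12 fine clusters, with both groups summed. Pearson's r of log2(CPM + 1) with Rexo5 was 0.84 for Tmem159, 0.71 for Dcun1d3, -0.26 for Lyrm1, -0.32 for Eri2 and -0.40 for Thumpd1 (n = 12 clusters). These are descriptions. The clusters share hashtags and a library and differ in depth and in their mix of the groups, with Crep cells from 1.79% of cluster 10 to 96.3% of cluster 7, so a difference between the groups enters these values, and the small clusters 9 and 11 are the extremes for Rexo5. Among 6377 genes whose average log2 CPM was 4 or more, the 5 most like Rexo5 over the clusters were Ncbp3 (r = 0.97), Adcy7 (0.96), Brpf1 (0.96), Irf3 (0.96) and Fbxw4 (0.95). Over the 8 hashtags they were Rmnd5b (0.97), Anapc11 (0.96), Agpat2 (0.96), AC163354.1 (0.95) and Glrx (0.95), and since Rexo5 differs between the 4 Crep and 4 Cren hashtags, this measure ranks genes that differ likewise. Eri2, Dcun1d3 and Lyrm1 were below this average level and were not ranked. Within the 4 Crep hashtags, r with Rexo5 was -0.30 for Eri2, -0.21 for Tmem159, -0.17 for Dcun1d3, 0.70 for Lyrm1 and -0.94 for Thumpd1. Within the 4 Cren hashtags r was 0.34, -0.73, 0.73, 0.09 and -0.44 in that order. With 4 hashtags each, these values are a description only.

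Genes of the same families and pathways elsewhere in the genome were set beside these 6. Of 16 other DEDD RNA exonuclease genes, 15 were tested and 0 passed by edgeR in either direction. At an unadjusted p under 0.05 there were 0, where 11.1% of all tested genes were under 0.05, a share to set beside each list here. The list had log2 fold changes of -0.32 to 0.23 and a median of -0.06 (all genes, -0.00). Rexo2, the mitochondrial oligoribonuclease and the member of highest level, averaged 96.8 ± 16.6 CPM across Crep hashtags, against 116 ± 11.5 CPM across Cren hashtags (SD, n = 4 each; log2 fold change -0.25, adjusted p = 0.4503). Isg20, an interferon-induced exonuclease, had 0.23 (adjusted p = 0.622) and Cnot8, a deadenylase, 0.02 (adjusted p = 0.972).

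Of 18 lipid droplet genes, the setting in which the Tmem159 protein acts, 11 were tested and 0 passed by edgeR, 2 at an unadjusted p under 0.05, with a median log2 fold change of 0.04. Bscl2, which encodes seipin, the partner of promethin, averaged 99.1 ± 6.06 CPM across Crep hashtags, against 84.6 ± 12.7 CPM across Cren hashtags (SD, n = 4 each; log2 fold change 0.22, adjusted p = 0.449). Pnpla2, the adipose triglyceride lipase, had -0.04 and Rab18, a droplet GTPase, -0.05. The 2 genes under 0.05 were Agpat2, which makes phosphatidic acid (log2 fold change 0.61, adjusted p = 0.0654), and Plin2, a droplet coat protein (0.57, adjusted p = 0.279).

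For Dcun1d3, all 18 neddylation genes listed were tested and 0 passed by edgeR, 1 at an unadjusted p under 0.05, with a median log2 fold change of 0.03. Rbx1, the RING subunit of cullin ligases, had a log2 fold change of 0.05, Nedd8 itself 0.03 and its conjugating enzyme Ube2m 0.14. The 1 gene under 0.05 was Cul4a, a cullin (-0.41, adjusted p = 0.4400). Of 10 LYR motif genes, 9 were tested and 0 passed, 0 at an unadjusted p under 0.05, with a median of 0.05 and with 0.05 for Ndufa6, 0.11 for Ndufb9 and -0.01 for Fmc1. All 5 THUMP and RNA acetylation genes were tested and 0 passed, 0 at an unadjusted p under 0.05, with a median of 0.04 and with -0.09 for Trmt112, 0.04 for Thumpd3 and 0.06 for Trmt11.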

How the data were processed

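UMI counts per gene and cell were used as the authors deposited them, 12798 genes by 8562 cells, with hashtag, group and fine cluster of each cell from the deposited annotation. The submitters' processing notes list Seurat 4.3.0, Cell Ranger 7.0.0, bcl2fastq 2.20.0.422 and the build mm10, without their roles. The percent of mitochondrial UMIs per cell was deposited by the authors, and its median was 0.615 to 0.650 in Crep hashtags and 0.670 to 0.805 in Cren hashtags. The annotation's cluster and hashtag calls, deposited by the authors, were taken as they stand; no doublet caller was run and no cell was removed. UMIs were summed per hashtag, or per hashtag and cluster, and tested in edgeR 4.0.16 (quasi-likelihood, TMM, filterByExpr, Benjamini-Hochberg over all genes at 0.05), as Crep minus Cren. The depth was 2635241 to 4201265 UMIs per hashtag. The fit was tested on simulated data. CPM are UMI counts scaled to 1000000 UMIs: over all cells, to the hashtag's total over the tested genes times its TMM factor; within clusters, for marker sums and for the fixed mix, to the plain total.

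The members and gene lists were chosen with earlier results of these data known. Named were the 6 genes, tested genes within 2 Mb that passed and the 3 nearest on each side, the 5 most like Rexo5 on each measure, and in each list those that passed and the 3 of highest level. Alternatives were DESeq2 1.42.0, no filter, cells whose hashtag calls differ left out, clusters 7 or 9 left out, a replicate block, a fixed cluster mix (limma 3.58.1, log2 with a pseudocount of 1), other windows and cell minimums, no thinning, and each hashtag left out. Positions are from GENCODE M21 (GRCm38), to which 12633 of the 12798 symbols matched; promoter windows are from RefSeq (GRCm38.p6). R 4.3.3 and Python 3.11.15 were used.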

Additional observations from a re-analysis of the deposited data

Results flagged for a closer look

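Dcun1d3 in Crep hashtag 1 stood apart from the other Crep hashtags, at 11.1 CPM where they had 15.6 to 16.1 CPM. Its gap to the nearest of them was 0.895 of the range of the 4 hashtags, above the limit of Dixon's test. This test flags about 1 in 20 groups by chance, and both groups of all 6 genes were looked at. Without Crep 1 the log2 fold change of Dcun1d3 was 0.83, against 0.71 with all hashtags.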

How the results depend on the processing

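The log2 fold changes of all 6 genes over all cells kept their sign under every alternative run, and none of the 4 tested ones passed under any. With 1 hashtag left out at a time, Rexo5 ran from 1.31 to 1.48, Eri2 from 0.82 to 1.05 (adjusted p 0.102 to 0.256), Tmem159 from 0.64 to 0.77, Dcun1d3 from 0.59 to 0.83 (0.101 to 0.3103), Lyrm1 from 0.15 to 0.46 and Thumpd1 from 0.05 to 0.19. Under the other settings adjusted p was 0.0864 to 0.296 for Eri2 and 0.113 to 0.5599 for Dcun1d3. The count of genes that passed over all cells moved more: it was 59 in the main setting, 145 with DESeq2, 26 without fine cluster 7, 22 with the cluster mix held fixed, and 14 to 121 without 1 hashtag (14 without Crep 2 or Cren 1, 24 without Crep 1 or Cren 4, 25 without Crep 3, 31 without Cren 2, 121 without Cren 3). Hashtag numbers are shared by the groups, but deviations of same-numbered hashtags correlated at -0.08, 0.21, 0.19 and 0.17, and no label ties a number to a mouse or batch. As 1 of the 4 was not above 0.1, the numbers were not taken as pairs, although for 3 of 4 numbers the best match was the same number, a hint from the data. With the number as a replicate block 103 genes passed, Eri2 had an adjusted p of 0.0926 and Dcun1d3 of 0.117. Within clusters, leaving out 1 hashtag gave 18 to 64 genes that passed in cluster 0, 2 to 13 in cluster 1, 6 to 24 in cluster 2, 0 to 3 in cluster 3, 37 to 115 in cluster 5 (where 5 of the 8 omissions left enough hashtags) and 0 to 3 in cluster 6, and cluster 3 gave 1 with at least 50 cells per hashtag. Thumpd1 changed sign to -0.16 in cluster 1 (without Crep 4; range to 0.41), to -0.08 (without Crep 2; range to 0.31) and -0.00 (without Cren 3) in cluster 2, and to 0.17 in cluster 3 (without Cren 3; range from -0.25). The interaction gave 2 genes with cells of uncertain hashtag left out and 1 to 14 without 1 hashtag. The difference in the share of cells with a Rexo5 UMI was 7.01 percentage points without thinning, against 4.84 with it. The causes of these changes were not tested. Of the 14 tested genes within 2 Mb other than the 6, 0 passed in every setting run over all cells. Depth limits Eri2 most, with 94 UMIs in Crep and 53 in Cren.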
